A study of Homo sapiens with 9 samples.

Results

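Cells build cholesterol and fatty acids from acetyl-CoA, and 32 genes of these routes were followed in mouse models of anaplastic thyroid cancer. They were chosen by symbol for their known roles and comprise 17 enzymes of the mevalonate and sterol routes, 6 regulators and carriers of sterol sensing and 9 enzymes of fatty acid synthesis and modification. Of the 32 genes, 27 had a row in the table of 17369 genes. Tm7sf2, Msmo1, Nsdhl and Ebp, enzymes of the later sterol steps, and Scd2, a fatty acid desaturase, had no row and were not analysed here. TBP3743 is a murine line derived from B6129SF1 mice carrying Braf V600E and a Trp53 deletion, both restricted to the thyroid, and all 3 groups share this origin. The original/B6129SF1 group received original TBP3743 cells in B6129SF1 hosts, the adapted/B6129SF1 group received adapted cells in the same hosts, and the adapted/C57BL/6 group received adapted cells in C57BL/6 hosts. Adapted cells were cultured from the largest subcutaneous tumors at round 3 of serial passage through C57BL/6 mice, and so stem from few tumors. Hosts were female and 6 weeks old, 100000 cells were placed in the thyroid, and whole tumors with their host cells were taken on day 14, 3 per group. The labels name the species as human, whereas the cells, the hosts and the genome used for alignment are murine.

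Cholesterol synthesis runs from acetyl-CoA through mevalonate, isoprenoids and squalene to lanosterol and then to cholesterol. The SREBP transcription factors, encoded by Srebf1 and Srebf2, switch on most of these enzymes when membranes are poor in sterol, and Scap and the Insig proteins hold or release them. Oxysterols act through the LXR receptors in the other direction, favouring sterol efflux through Abca1. Dividing cells draw on both routes for membranes.

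Values are FPKM, sequenced fragments scaled by transcript length and by the size of each library, and fold changes are given as log2 of FPKM plus 1, which understates changes of weakly expressed genes. The FPKM of a tumor summed to 457983 to 540514, and read depth relative to original/B6129SF1 replicate 1 lay between about 0.961 and 1.35. Absolute depth is unknown. Replicates are separate tumors by their labels. Skeletal muscle transcripts made up 6.74% of all FPKM in adapted/B6129SF1 replicate 3 and 1.31% in adapted/C57BL/6 replicate 1, against at most 0.155% in the other tumors. Of the 9 thyroid markers listed, the factor Nkx2-1 was present in all 9 tumors, from 23.5 to 44.5 FPKM. Tg, the thyroglobulin gene, ranged from 0.0153 to 31.0 FPKM and was above 10 in original/B6129SF1 replicates 2 and 3 and adapted/C57BL/6 replicates 1 and 2. Pax8 reached at most 1.61 FPKM, and Slc5a5, Tshr, Foxe1, Dio1 and Duox2 at most 0.248. Neither Nkx2-1 nor Tg passed between groups (adjusted p from 0.288 to 0.982 in limma). The labels call the cells epithelial, and the keratin genes Krt8 and Krt18, named after their values were seen, ranged from 153 to 615 and from 110 to 390 FPKM. The epithelial adhesion genes Epcam and Cdh1, chosen in the same way, were low, at 0.0949 to 2.49 and 1.03 to 4.48 FPKM. In whole tumors, fewer cells of a type and less RNA per cell cannot be told apart.

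All 27 genes with a row passed the filter of at least 1 FPKM in at least 3 tumors and were among the 10263 genes tested with limma. Fdps was the highest by mean over the 9 tumors, at 68.5 FPKM, followed by Acly at 62.3 and Scd1 at 52.9, and Hsd17b7 was the lowest at 4.39. The heat map of the 27 genes in each tumor shows that they did not fall simply into the 3 groups. Most sterol enzymes were low together in original/B6129SF1 replicate 2 and in adapted/B6129SF1 replicate 1, and nearly level among the adapted/C57BL/6 tumors.

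**Figure D1:**
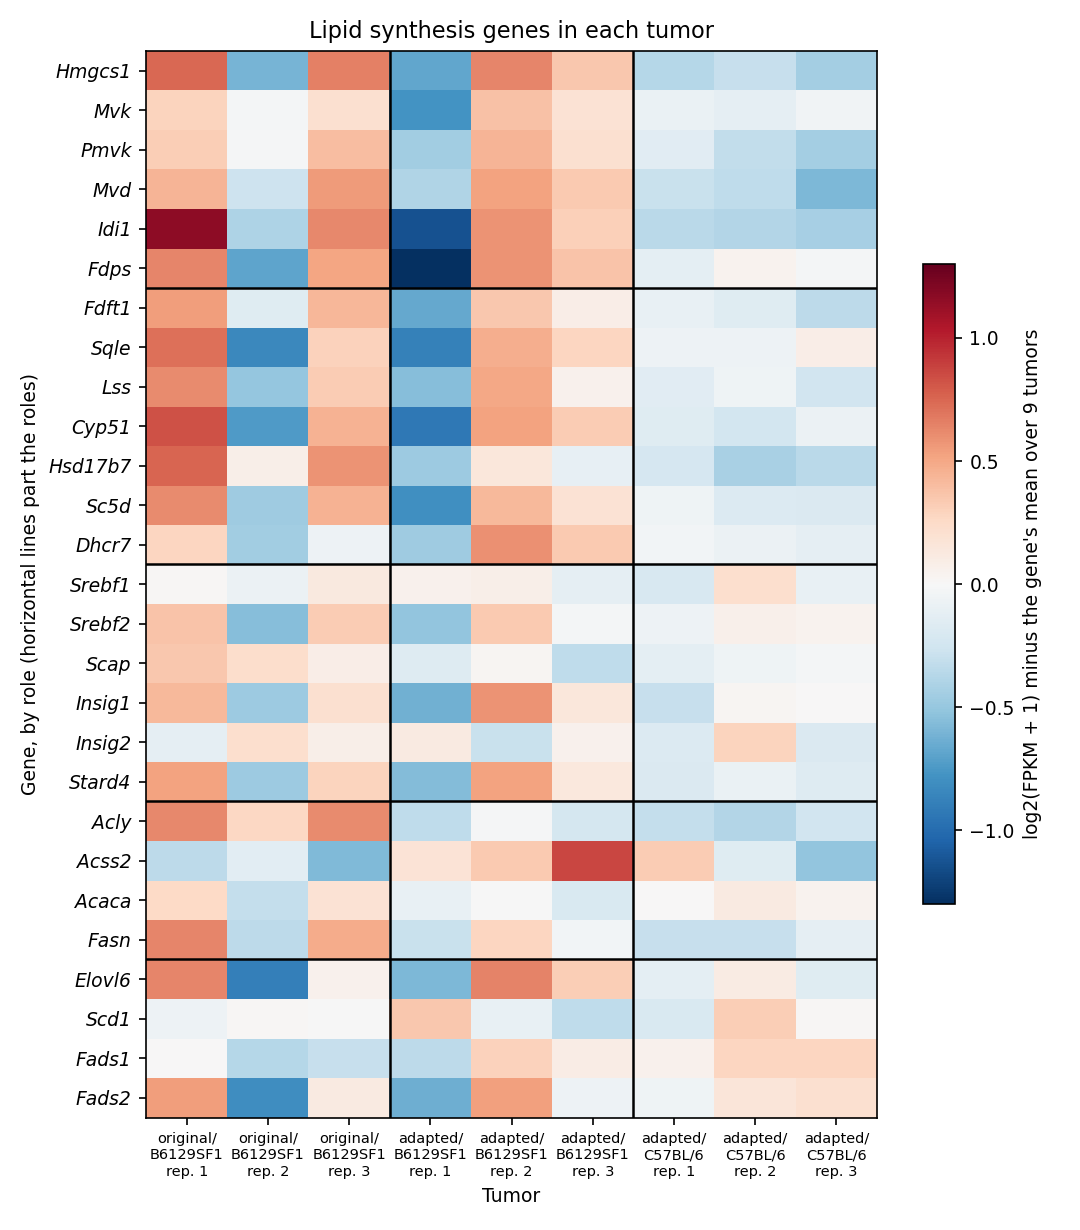
Heat map of the 27 genes with a row (vertical, by role) in the 9 tumors (horizontal, by group), coloured by log2(FPKM + 1) minus the mean of the gene over all tumors. Most sterol enzymes in the upper rows are blue in original/B6129SF1 replicate 2 and adapted/B6129SF1 replicate 1, and mostly pale in the adapted/C57BL/6 tumors. Hsd17b7, Mvk and Pmvk are near their means in original/B6129SF1 replicate 2. Acly is red in the 3 original/B6129SF1 tumors alone.

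To see whether the adapted cells differed from the original cells in the same hosts, the adapted/B6129SF1 group was compared with the original/B6129SF1 group. Acly, which encodes ATP citrate lyase and supplies cytosolic acetyl-CoA to both routes, was the 1 gene of the 27 past an adjusted p of 0.05, and it was lower. That is 3.7% of the genes, where 8.28% of all genes tested passed and 3.92% passed as lower. None of the 27 was a DEG, defined as an adjusted p under 0.05 with an absolute log2 fold change above 1, against 3.22% of all genes tested. By unadjusted p under 0.05 there were 4 of 27 and 2721 of 10263. The median log2 fold change of the 27 was -0.14 and that of all genes tested -0.03, with 23 of the 27 below 0 (85.2%, against 54.3% of all genes tested). When tumors were scaled by median ratios, which moved the median of all genes by 0.039, 4 of the 27 signs turned. Without adapted/B6129SF1 replicate 1, 13 of the 27 turned, and 9 did without original/B6129SF1 replicate 1 or without replicate 3 of that group. The groups did not overlap for 3 of the 27 (11.1%), Acly and Scap lower and Acss2 higher, where 29.6% of all genes did not overlap and 15.9% did so with lower values. The median was 0.13 without adapted/B6129SF1 replicate 1 and -0.36 without replicate 2 of that group. It was -0.02, -0.38 and -0.05 without original/B6129SF1 replicates 1, 2 and 3 in turn.

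The adapted/C57BL/6 group against the original/B6129SF1 group changes both cells and host. Acly was again the 1 gene past an adjusted p of 0.05 (3.7% of 27, where 6.75% of all genes tested passed and 2.77% passed as lower), and 0 of 27 were DEGs against a background of 3.09%. By unadjusted p under 0.05 there were 6 of 27 and 2502 of 10263. Of the 27 genes 20 were below 0 (74.1%, against 53.9% of all genes tested). The median log2 fold change was -0.24 for the 27 genes and -0.03 for all genes tested. For the 27 it was -0.06 without original/B6129SF1 replicate 1 and -0.52 without original/B6129SF1 replicate 2. The groups were apart for 7 of the 27 genes (25.9%), Hsd17b7, Acly, Pmvk, Mvk, Mvd and Scap with lower values and Fads1 with higher ones, against 32.8% of all genes, 17.9% with lower values. Both comparisons use the same 3 original/B6129SF1 tumors.

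Adapted cells were also compared between the hosts. Between the adapted/C57BL/6 and adapted/B6129SF1 groups 0 of the 27 genes passed an adjusted p of 0.05 with limma and 0 were DEGs, against 0.0292% of all genes tested by either rule. By unadjusted p under 0.05 there was 1 of 27, Acss2, and 643 of 10263. Of the 27 genes 18 were below 0 (66.7%, against 48.5% of all genes tested), and 11 signs turned without adapted/B6129SF1 replicate 2. The median log2 fold change was -0.12, against 0.01 for all genes tested. It was -0.42 without adapted/B6129SF1 replicate 1, 0.08 without adapted/B6129SF1 replicate 2 and -0.01 without both muscle-rich tumors. The groups did not overlap for 1 of the 27 genes, Acaca (3.7%, where 11.7% of all genes did not overlap). Its values were 8.79, 9.57 and 9.06 FPKM in the adapted/C57BL/6 tumors and 8.16, 8.74 and 7.51 in the adapted/B6129SF1 tumors, so the nearest tumors differed by little.

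**Figure D2:**
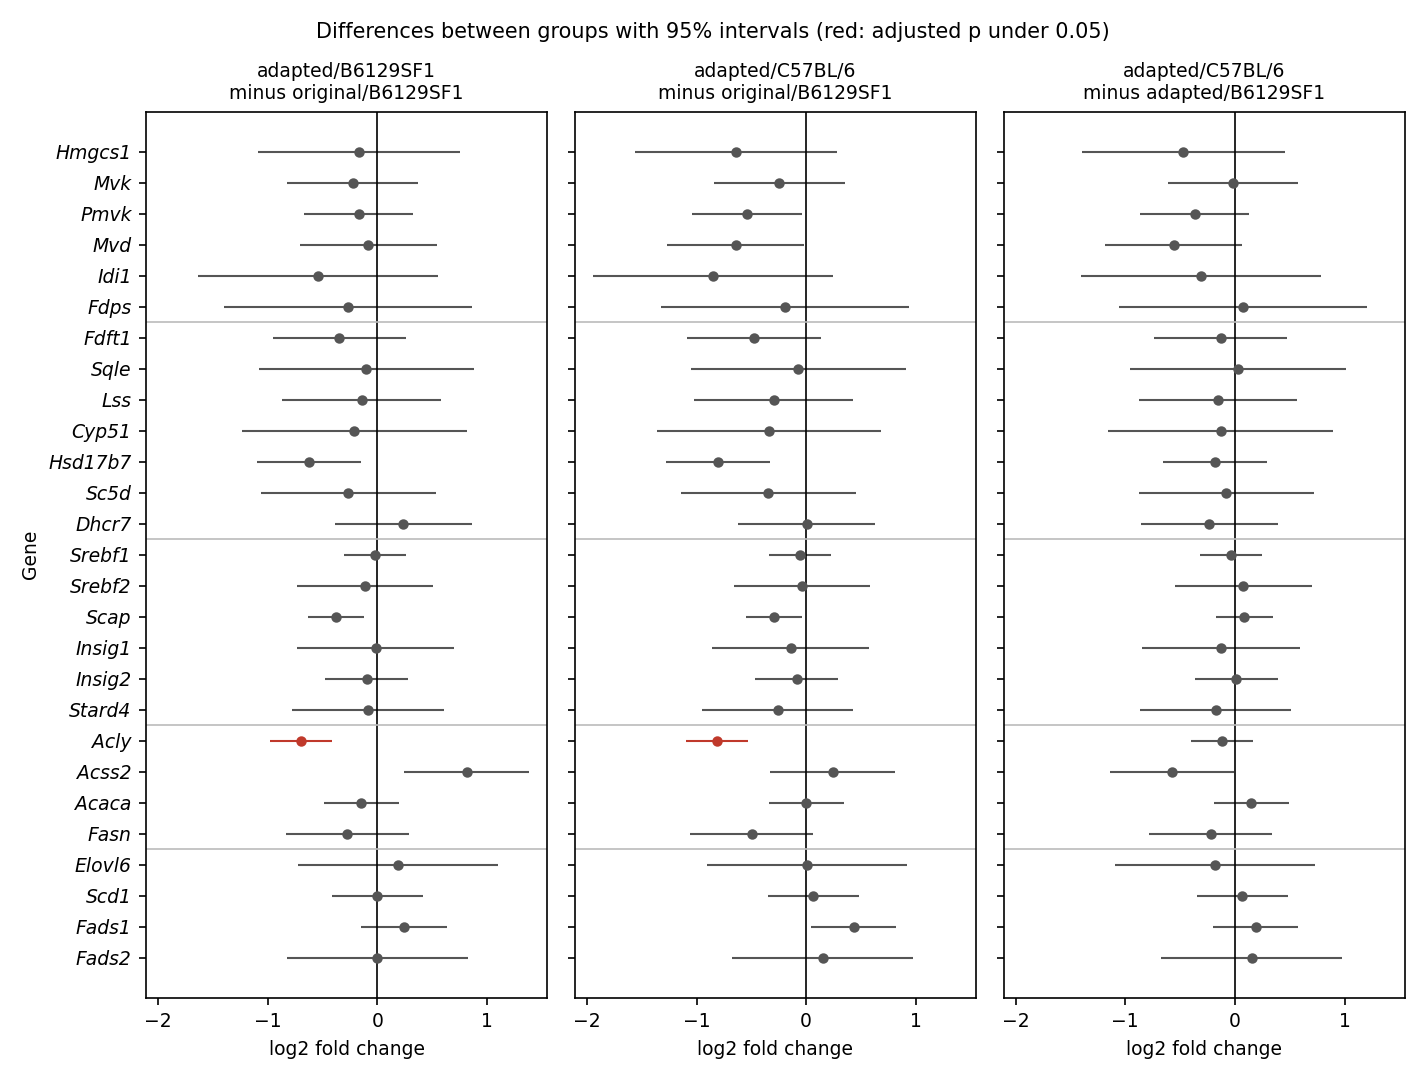
Log2 fold change (horizontal, on log2(FPKM + 1)) of the 27 genes (vertical) in the 3 comparisons, each point with its 95% interval from limma. Acly, in red, is the only gene with an adjusted p under 0.05, at -0.69 and -0.82 against the original/B6129SF1 group, and the intervals of most sterol enzymes span 0.

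Acly had 93.3, 72.4 and 92.3 FPKM in the original/B6129SF1 tumors, 47.5, 59.2 and 51.2 in the adapted/B6129SF1 tumors and 48.3, 46.0 and 50.1 in the adapted/C57BL/6 tumors. Every adapted tumor was below every original/B6129SF1 tumor, and the 2 adapted groups overlapped. The log2 fold change was -0.69 in the adapted/B6129SF1 group (standard error 0.12, adjusted p = 0.015 from limma with Benjamini-Hochberg adjustment) and -0.82 in the adapted/C57BL/6 group (standard error 0.12, adjusted p = 0.00743). As ratios of mean FPKM these were 0.612 and 0.56. Between the adapted groups it was -0.12 (95% interval -0.40 to 0.16, adjusted p = 0.912). The fall in the adapted/B6129SF1 group lost its call without original/B6129SF1 replicate 1 (adjusted p = 0.0553), without original/B6129SF1 replicate 3 (adjusted p = 0.0676) and without both muscle-rich tumors (adjusted p = 0.057), while its log2 fold change stayed between -0.81 and -0.60 over 21 alternatives. The fall in the adapted/C57BL/6 group held in all 21. Krt8, named after its values were seen, was also lower in both adapted groups. Its log2 fold changes were -1.32 (adjusted p = 0.0189 from limma) and -1.12 (adjusted p = 0.0346). Between the adapted groups Krt8 was at 0.20 (adjusted p = 0.928), with the sign opposite to Acly. It had 363 to 615 FPKM in the original/B6129SF1 tumors, 153 to 283 in the adapted/B6129SF1 tumors and 221 to 241 in the adapted/C57BL/6 tumors. In the same order of groups, mean FPKM was 315, 169 and 161 for Krt18, 1.13, 0.945 and 1.32 for Epcam and 2.69, 1.54 and 3.62 for Cdh1. By these means Epcam and Cdh1 were not lower in the adapted/C57BL/6 group, but both were weakly expressed. Epcam ran from 0.0949 to 2.49 FPKM within that group. The part of these genes in the fall of Acly was not tested.

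Acss2 makes acetyl-CoA from acetate, the other cytosolic supply. Its values were 3.35, 4.01 and 2.69 FPKM in the original/B6129SF1 tumors, 5.21, 5.99 and 9.05 in the adapted/B6129SF1 tumors and 5.93, 3.95 and 2.86 in the adapted/C57BL/6 tumors. The adapted/B6129SF1 tumors were all above the original/B6129SF1 tumors, and the adapted/C57BL/6 tumors overlapped both. The log2 fold change in the adapted/B6129SF1 group was 0.81 (95% interval 0.24 to 1.38), which did not pass (adjusted p = 0.0831 from limma). Adipocyte markers were measured beside it. All 12 genes of that list had a row, 5 were tested and 0 passed (lowest adjusted p 0.177 in limma), and the summed FPKM of the 12 was 21.9 to 42.5 in the original/B6129SF1 tumors, 49.0 to 430 in the adapted/B6129SF1 tumors and 15.8 to 183 in the adapted/C57BL/6 tumors (exact two-sided permutation test of adapted/B6129SF1 against original/B6129SF1, p = 0.1, the smallest that 3 against 3 can give). Adipoq, a defining adipocyte gene, was at 0 in original/B6129SF1 replicate 1 and reached 12.3 FPKM in adapted/B6129SF1 replicate 3, the tumor with the most Acss2. Adapted/C57BL/6 replicate 1 had the next highest sum of the 12, 183, and 5.93 FPKM of Acss2. Adapted/B6129SF1 replicate 2 had a sum of 84.7 and 5.99 FPKM of Acss2. With the summed adipocyte level as a covariate the log2 fold change of Acss2 was 0.45 (adjusted p = 0.33 from limma). The highest sum was that of adapted/B6129SF1 replicate 3 alone, and the part of adipocytes in the Acss2 values was not tested.

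Acaca, acetyl-CoA carboxylase, and Fasn, fatty acid synthase, carry out the committed step and the chain building. Acaca was 10.7, 6.91 and 10.2 FPKM in the original/B6129SF1 tumors, which enclosed all adapted tumors. Fasn was 31.8, 15.7 and 28.6 FPKM in the original/B6129SF1 tumors, 16.3, 24.7 and 19.6 in the adapted/B6129SF1 tumors and 16.3, 16.2 and 18.5 in the adapted/C57BL/6 tumors. Original/B6129SF1 replicate 2 lay below all the others, so the groups overlapped. Against the original/B6129SF1 group, Fasn had a log2 difference of -0.27 in the adapted/B6129SF1 group (limma, adjusted p = 0.505) and of -0.50 in the adapted/C57BL/6 group (adjusted p = 0.258). The latter was -0.80 without original/B6129SF1 replicate 2 (adjusted p = 0.042).

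Among the enzymes that lengthen and desaturate fatty acids, 4 of 5 had a row, and 0 passed in any comparison. Of all genes tested 8.28%, 6.75% and 0.0292% passed in the 3 comparisons, so the lack of a call among 4 genes says little. Scd1, the stearoyl-CoA desaturase, was 49.8, 53.0 and 52.1 FPKM in the original/B6129SF1 tumors, 67.0, 49.1 and 41.5 in the adapted/B6129SF1 tumors and 45.4, 65.4 and 52.9 in the adapted/C57BL/6 tumors. The group means were nearly equal, with log2 fold changes of -0.00 (95% interval -0.42 to 0.41) and 0.06 (95% interval -0.35 to 0.48) against the original/B6129SF1 group. Near-identical desaturase genes can share reads with Scd1, which makes its level less certain. Fads1, the delta-5 desaturase of polyunsaturated fatty acids, was 43.8, 33.6 and 35.3 FPKM in the original/B6129SF1 tumors, 34.4, 54.2 and 46.9 in the adapted/B6129SF1 tumors and 45.6, 53.5 and 53.4 in the adapted/C57BL/6 tumors. The adapted/C57BL/6 tumors were all above the original/B6129SF1 tumors, by little at the nearest pair, and the log2 fold change was 0.43 (95% interval 0.04 to 0.82, adjusted p = 0.168 from limma). Fads2, the delta-6 desaturase, was 40.1, 15.1 and 29.6 FPKM in the original/B6129SF1 tumors, 17.2, 39.9 and 26.0 in the adapted/B6129SF1 tumors and 26.1, 30.4 and 31.6 in the adapted/C57BL/6 tumors. Its groups overlapped, as did those of the elongase gene Elovl6, which had 8.49 ± 4.58, 9.52 ± 4.12 and 7.77 ± 0.878 FPKM (SD, n = 3 each, in the order original/B6129SF1, adapted/B6129SF1 and adapted/C57BL/6).

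**Figure D3:**
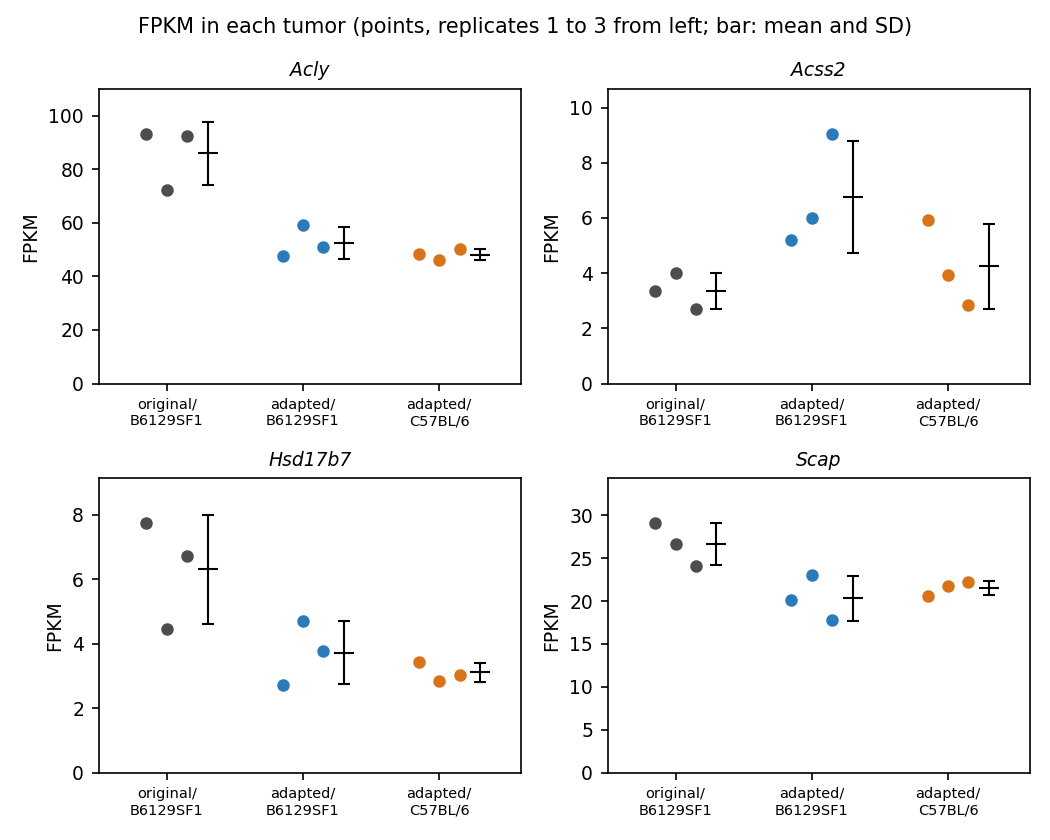
FPKM (vertical) of Acly, Acss2, Hsd17b7 and Scap in the 3 tumors of each group (horizontal, replicates 1 to 3 from left), with the mean and SD beside them. For Acly and Scap every adapted tumor lies below every original/B6129SF1 tumor, for Hsd17b7 the adapted/C57BL/6 tumors do, and for Acss2 adapted/B6129SF1 replicate 3 is highest at 9.05 FPKM.

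The first enzymes of the sterol route carry acetyl units to isoprenoids, and 0 of 6 passed in any comparison. With 8.28%, 6.75% and 0.0292% of all genes tested passing in the 3 comparisons, few calls could come from 6 genes. Hmgcs1, HMG-CoA synthase, was 50.04, 19.1 and 47.1 FPKM in the original/B6129SF1 tumors, 18.0, 46.2 and 37.7 in the adapted/B6129SF1 tumors and 22.6, 23.8 and 21.4 in the adapted/C57BL/6 tumors. Fdps, farnesyl diphosphate synthase, was 98.6, 38.9 and 91.1 FPKM in the original/B6129SF1 tumors, 25.3, 95.5 and 82.1 in the adapted/B6129SF1 tumors and 57.9, 65.2 and 62.0 in the adapted/C57BL/6 tumors. Pmvk, phosphomevalonate kinase, was 25.8, 20.2 and 27.2 FPKM in the original/B6129SF1 tumors, 14.7, 28.0 and 23.6 in the adapted/B6129SF1 tumors and 18.4, 16.1 and 14.8 in the adapted/C57BL/6 tumors. For each of these genes original/B6129SF1 replicate 2 and adapted/B6129SF1 replicate 1 were the lowest of their groups, and for Pmvk the adapted/C57BL/6 tumors were all below the original/B6129SF1 tumors. The kinase gene Mvk was 14.9 ± 1.76, 13.3 ± 5.37 and 12.4 ± 0.329 FPKM (SD, n = 3 each, in the order original/B6129SF1, adapted/B6129SF1 and adapted/C57BL/6), the decarboxylase gene Mvd 10.3 ± 3.16, 9.75 ± 3.25 and 6.09 ± 0.766, and the isomerase gene Idi1 12.5 ± 6.6, 8.47 ± 4.81 and 5.8 ± 0.197. Log2 fold changes in the adapted/C57BL/6 group against the original/B6129SF1 group ran from -0.85 for Idi1 (95% interval -1.94 to 0.24) to -0.19 for Fdps (95% interval -1.32 to 0.94), with adjusted p from 0.175 to 0.851 in limma.

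The squalene and sterol enzymes gave the same picture, with 7 of 11 having a row and 0 past the threshold. The shares of all genes tested were again 8.28%, 6.75% and 0.0292% in the 3 comparisons. Sqle, squalene epoxidase and a rate-limiting step, was 50.9, 16.7 and 37.8 FPKM in the original/B6129SF1 tumors, 16.1, 42.8 and 37.5 in the adapted/B6129SF1 tumors and 29.2, 29.3 and 32.5 in the adapted/C57BL/6 tumors. Fdft1, squalene synthase, was 26.2, 15.7 and 24.1 FPKM in the original/B6129SF1 tumors, 10.8, 22.8 and 18.9 in the adapted/B6129SF1 tumors and 16.4, 15.7 and 13.7 in the adapted/C57BL/6 tumors. Cyp51, the lanosterol demethylase, was 29.8, 9.40 and 22.8 FPKM in the original/B6129SF1 tumors, 8.10, 23.9 and 20.8 in the adapted/B6129SF1 tumors and 14.5, 13.7 and 15.5 in the adapted/C57BL/6 tumors. All 3 genes were lowest in adapted/B6129SF1 replicate 1, and their groups overlapped. Lss, which cyclizes squalene epoxide to lanosterol, was 11.5 ± 4.51, 10.2 ± 3.93 and 8.67 ± 0.625 FPKM, Sc5d, a sterol desaturase, 15.0 ± 5.66, 12.5 ± 5.28 and 11.02 ± 0.66, and Dhcr7, which closes the route, 5.59 ± 1.67, 6.96 ± 2.75 and 5.47 ± 0.196 (SD, n = 3 each, in the same order of groups).

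Hsd17b7, a sterol ketoreductase, came nearest to a call. Its values were 7.74, 4.46 and 6.73 FPKM in the original/B6129SF1 tumors, 2.72, 4.70 and 3.78 in the adapted/B6129SF1 tumors and 3.44, 2.86 and 3.05 in the adapted/C57BL/6 tumors. The adapted/C57BL/6 tumors were all below the original/B6129SF1 tumors, and the adapted/B6129SF1 tumors overlapped them. The log2 fold change was -0.80 in the adapted/C57BL/6 group (standard error 0.21, adjusted p = 0.0547 from limma) and -0.62 in the adapted/B6129SF1 group (adjusted p = 0.103). Without original/B6129SF1 replicate 2 both passed, at -1.001 (adjusted p = 0.0318) and -0.82 (adjusted p = 0.0492). In the adapted/C57BL/6 group it passed in 5 of 20 alternatives, including the fit without adapted/B6129SF1 replicate 1 (adjusted p = 0.0403).

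The 6 regulators and carriers also gave 0 calls, where 8.28%, 6.75% and 0.0292% of all genes tested passed in the 3 comparisons. Srebf2, the main sterol-responsive factor, was 63.7, 33.3 and 62.2 FPKM in the original/B6129SF1 tumors, 34.1, 62.5 and 48.4 in the adapted/B6129SF1 tumors and 46.8, 51.3 and 50.7 in the adapted/C57BL/6 tumors. Srebf1, the factor more tied to fatty acid synthesis, was 33.9, 31.7 and 36.7 FPKM in the original/B6129SF1 tumors, 34.8, 35.3 and 30.7 in the adapted/B6129SF1 tumors and 28.9, 39.1 and 31.2 in the adapted/C57BL/6 tumors. Srebf2 was low in the same tumors as the sterol enzymes, Srebf1 varied less, and the groups of neither gene were apart. Insig1, itself a target of the SREBP factors, was 30.1, 15.7 and 25.9 FPKM in the original/B6129SF1 tumors, 14.1, 33.7 and 24.8 in the adapted/B6129SF1 tumors and 17.9, 22.7 and 22.3 in the adapted/C57BL/6 tumors. Its relative Insig2 was 22.3 ± 2.72, 20.9 ± 3.15 and 21.2 ± 4.39 FPKM (SD, n = 3 each, in the order original/B6129SF1, adapted/B6129SF1 and adapted/C57BL/6), and Stard4, a sterol carrier, was 15.9 ± 5.48, 15.0 ± 5.69 and 12.5 ± 0.514. Scap, the escort of the SREBP factors, was 29.1, 26.7 and 24.1 FPKM in the original/B6129SF1 tumors, 20.1, 23.1 and 17.8 in the adapted/B6129SF1 tumors and 20.6, 21.7 and 22.2 in the adapted/C57BL/6 tumors. Every adapted tumor was below every original/B6129SF1 tumor, but the log2 differences of -0.38 (95% interval -0.64 to -0.12, limma adjusted p = 0.0763) and -0.29 (adjusted p = 0.159) did not pass.

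In B6129SF1 hosts the 13 sterol enzymes with a row varied widely between tumors of the same group. Their summed FPKM was 378, 169 and 333 in the original/B6129SF1 tumors, 129.1, 347 and 292 in the adapted/B6129SF1 tumors and 214, 216 and 210.3 in the adapted/C57BL/6 tumors. Within the original/B6129SF1 group replicate 2 was the lowest tumor for 13 of 13 enzymes, as it was for 41.2% of all genes tested. Within the adapted/B6129SF1 group replicate 1 was the lowest for 13 of 13 and replicate 2 the highest for 13 of 13, against 33.7% and 29.6% of all genes. Over all 9 tumors adapted/B6129SF1 replicate 1 was the lowest for 12 of the 13, all but Mvd, and for 14.1% of all genes. Original/B6129SF1 replicate 2 was the lowest of the 9 for 0 of the 13. It was among the lowest 2 for 7 of the 13, and for 27.3% of all genes. Insig2 and Scd1 went the other way, being highest in both of these tumors within their groups.

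The adapted/C57BL/6 tumors were the most alike. The median SD of the 13 enzymes on the log2 scale was 0.58 in the original/B6129SF1 group, 0.62 in the adapted/B6129SF1 group and 0.08 in the adapted/C57BL/6 group, and over all genes tested it was 0.17, 0.18 and 0.13. The smallest of the 3 SDs was that of the adapted/C57BL/6 group for 13 of 13 enzymes, for 23 of the 27 genes and for 43.9% of all genes. The highest tumor exceeded the lowest by a median factor of 2.25 in the original/B6129SF1 group, 2.41 in the adapted/B6129SF1 group and 1.13 in the adapted/C57BL/6 group. These spreads come from 3 tumors each and rest on 1 low tumor in each B6129SF1 group, and the difference in spread was not tested. The enzymes share their tumors and are not independent of one another.

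Of 4 LXR targets listed with the efflux genes, all named here after their values were seen, Mylip and Abca1 were highest in the tumors with the lowest sterol enzymes. Abcg1 and Lpcat3 were so in the original/B6129SF1 group alone. Among LXR targets listed under other roles, Scd1 was highest of its group in both of these tumors, and Srebf1, Fasn and Lpl in neither. Lpl was lowest of its group in both, at 1.68 FPKM in original/B6129SF1 replicate 2 and 11.7 in adapted/B6129SF1 replicate 1. Fasn was likewise lowest of its group in both, at 15.7 and 16.3 FPKM. Mylip, a ubiquitin ligase gene, was 8.03, 22.7 and 11.9 FPKM in the original/B6129SF1 tumors, 31.0, 12.1 and 12.3 in the adapted/B6129SF1 tumors and 13.4, 18.1 and 11.4 in the adapted/C57BL/6 tumors. The sterol efflux gene Abca1 had 24.7 FPKM in original/B6129SF1 replicate 2 and 25.8 in adapted/B6129SF1 replicate 1, against 7.56 to 17.1 in the other B6129SF1 tumors. Neither gene passed between groups (adjusted p from 0.639 to 0.982 in limma). Abcg1, another efflux gene, was 1.92, 3.77 and 1.66 FPKM in the original/B6129SF1 tumors and 4.96, 2.45 and 5.33 in the adapted/B6129SF1 tumors, where replicate 3 was the highest. Lpcat3, a phospholipid acyltransferase gene, was 14.5, 16.3 and 15.5 FPKM in the original/B6129SF1 tumors and 17.5, 17.5 and 18.7 in the adapted/B6129SF1 tumors, with replicate 1 not above the others.

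Proliferation genes were low in 1 of these tumors as well. The 12 genes of that list all had a row, and their summed FPKM was 849, 578 and 592 in the original/B6129SF1 tumors, 306, 714 and 594 in the adapted/B6129SF1 tumors and 680, 601 and 624 in the adapted/C57BL/6 tumors. Adapted/B6129SF1 replicate 1 was thus the lowest for both lists, while original/B6129SF1 replicate 2 was close to replicate 3 in proliferation and far below it in sterol enzymes. With the summed proliferation level as a covariate, chosen after the values were seen, the median log2 fold change of the 27 genes was 0.15 in the adapted/B6129SF1 group and -0.19 in the adapted/C57BL/6 group, both against the original/B6129SF1 group, and -0.40 between the adapted groups. The part of proliferation in these values was not tested. T and NK cell markers, with 11 of 12 having a row, summed to 21.0, 10.3 and 26.1 FPKM in the original/B6129SF1 tumors and 24.0, 59.3 and 60.1 in the adapted/B6129SF1 tumors. Within each of these groups they were lowest in the tumor with the lowest sterol enzymes. Between groups, adapted/B6129SF1 replicate 1 exceeded original/B6129SF1 replicate 1, the tumor with the highest sterol sum. They summed to 63.3 to 96.1 in the adapted/C57BL/6 tumors, and their part in the sterol values was not tested.

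**Figure D4:**
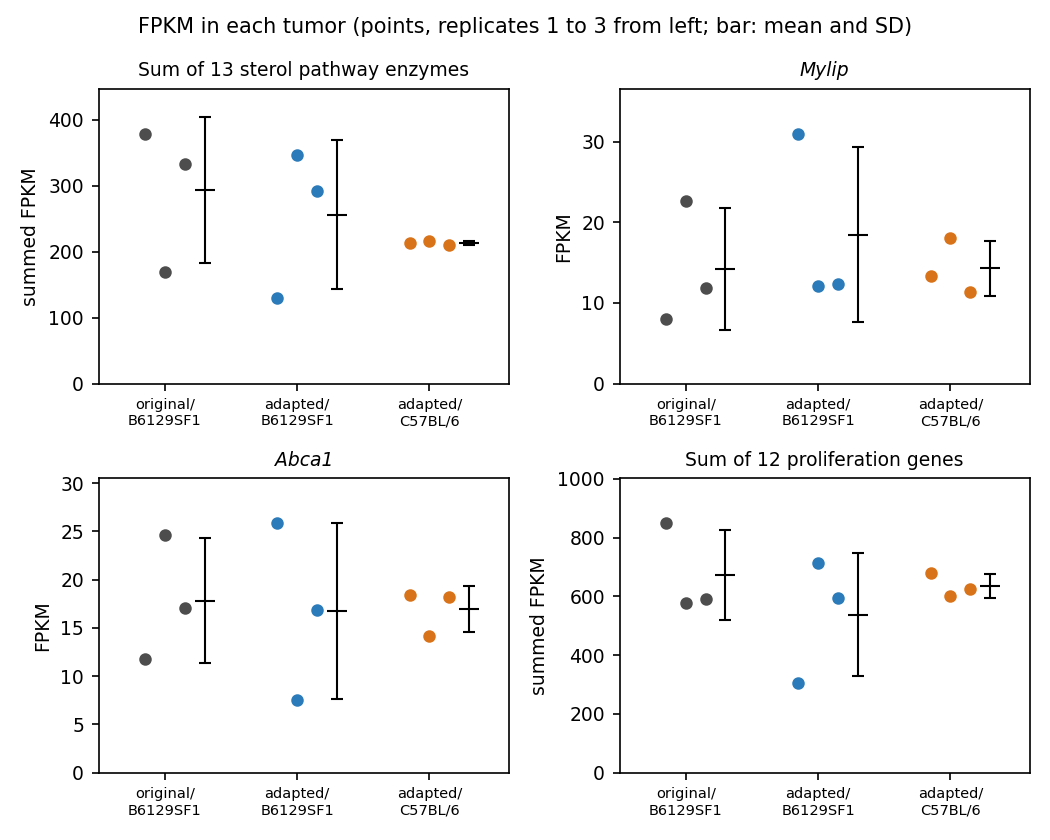
Summed FPKM of the 13 sterol enzymes, FPKM of Mylip and Abca1, and summed FPKM of 12 proliferation genes (vertical) in each tumor (points, replicates 1 to 3 from left in each group), with the mean and SD. Original/B6129SF1 replicate 2 and adapted/B6129SF1 replicate 1 are low for the sterol enzymes (169 and 129.1) and high for Mylip (22.7 and 31.0) and Abca1 (24.7 and 25.8), and for proliferation only the second is low (306).

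Around these genes, 94 further genes of lipid metabolism were listed, of which 81 had a row and 69 were tested. In the adapted/B6129SF1 group 1 passed as higher and 3 as lower, in the adapted/C57BL/6 group 1 as higher and 2 as lower, and between the adapted groups 0 passed. These are 5.8% and 4.35% of the 69, where 8.28% and 6.75% of all genes tested passed. The median log2 fold changes of the 69 were -0.02, -0.02 and -0.05. Of 10 other genes of sterol synthesis and uptake 1 was lower in the adapted/B6129SF1 group, and of 8 genes of SREBP processing and lipogenic transcription 1 was lower in the adapted/C57BL/6 group. Of 16 genes of sterol efflux, oxysterols and esterification 1 was higher and 1 lower in the adapted/B6129SF1 group, and 1 was higher in the adapted/C57BL/6 group. The 11 further genes of fatty acid synthesis and the 10 of triglyceride synthesis and lipid droplets gave 0 calls.

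Cyp27a1, the sterol 27-hydroxylase that makes an oxysterol from cholesterol, was the 1 DEG among them. It had 2.00, 2.81 and 2.14 FPKM in the original/B6129SF1 tumors, 8.01, 5.87 and 8.83 in the adapted/B6129SF1 tumors and 6.55, 5.50 and 4.41 in the adapted/C57BL/6 tumors. Every adapted tumor exceeded every original/B6129SF1 tumor. It rose by 1.36 in the adapted/B6129SF1 group (standard error 0.18, adjusted p = 0.00592 from limma), in all 21 alternatives, and by 0.96 in the adapted/C57BL/6 group (adjusted p = 0.0181), in 15 of 21. Without adapted/C57BL/6 replicate 1 the latter was 0.85 (adjusted p = 0.06), and it also lost its call without original/B6129SF1 replicate 1 (adjusted p = 0.0645), original/B6129SF1 replicate 3 (adjusted p = 0.0717) or adapted/C57BL/6 replicate 2 (adjusted p = 0.0541). Macrophage and monocyte markers, of which 13 of 14 had a row and 0 and 1 passed as higher in the 2 groups, summed to 2602 to 3363 FPKM in the original/B6129SF1 tumors, 3368 to 4937 in the adapted/B6129SF1 tumors and 2178 to 4240 in the adapted/C57BL/6 tumors. Their part in the rise of Cyp27a1 was not tested.

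Mlx, the partner of a glucose-responsive lipogenic factor, was 19.8, 16.2 and 19.6 FPKM in the original/B6129SF1 tumors, 16.1, 14.9 and 15.6 in the adapted/B6129SF1 tumors and 12.8, 11.1 and 11.4 in the adapted/C57BL/6 tumors. Its values stepped down over the 3 groups without overlap. The nearest original/B6129SF1 and adapted/B6129SF1 tumors were almost equal, at 16.15 and 16.09 FPKM. Against the original/B6129SF1 group it fell by 0.60 in the adapted/C57BL/6 group (adjusted p = 0.013 from limma). Its log2 fold change of -0.24 in the adapted/B6129SF1 group did not pass (adjusted p = 0.192), nor did that of -0.37 between the adapted groups (adjusted p = 0.602). The fall of Mlx in the adapted/C57BL/6 group against the original/B6129SF1 group passed in 17 of 21 alternatives. It lost its call when tumors were scaled to an equal sum of FPKM (adjusted p = 0.0703) and without original/B6129SF1 replicate 1 (adjusted p = 0.0521), original/B6129SF1 replicate 3 (adjusted p = 0.0601) or adapted/C57BL/6 replicate 3 (adjusted p = 0.0681).

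Nceh1, a cholesteryl ester hydrolase, was 22.6 ± 1.55, 15.3 ± 1.44 and 17.0 ± 1.67 FPKM (SD, n = 3 each, in the order original/B6129SF1, adapted/B6129SF1 and adapted/C57BL/6). In the adapted/B6129SF1 group it fell by 0.53 (log2; limma, adjusted p = 0.0229), a call kept in 13 of 21 alternatives but not without original/B6129SF1 replicate 1 (adjusted p = 0.0556), original/B6129SF1 replicate 3 (adjusted p = 0.0856) or adapted/B6129SF1 replicate 3 (adjusted p = 0.0579). Its log2 fold change in the adapted/C57BL/6 group was -0.39 (adjusted p = 0.0642). Cyb5r3, a reductase that passes electrons to sterol and fatty acid enzymes among others, was 382 ± 60, 247 ± 41.3 and 273 ± 26.5 FPKM in the same order. Its fall of 0.63 on the log2 scale in the adapted/B6129SF1 group (adjusted p = 0.0479 from limma) passed in 4 of 21 alternatives, and of the fits without 1 tumor only in the one without adapted/B6129SF1 replicate 1 (adjusted p 0.0596 to 0.116 in the others). Interferon-gamma response genes differed between the same groups, with 12 of 14 higher in the adapted/B6129SF1 group and 14 of 14 in the adapted/C57BL/6 group by adjusted p under 0.05, and their part in these changes was not tested.

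**Figure D5:**
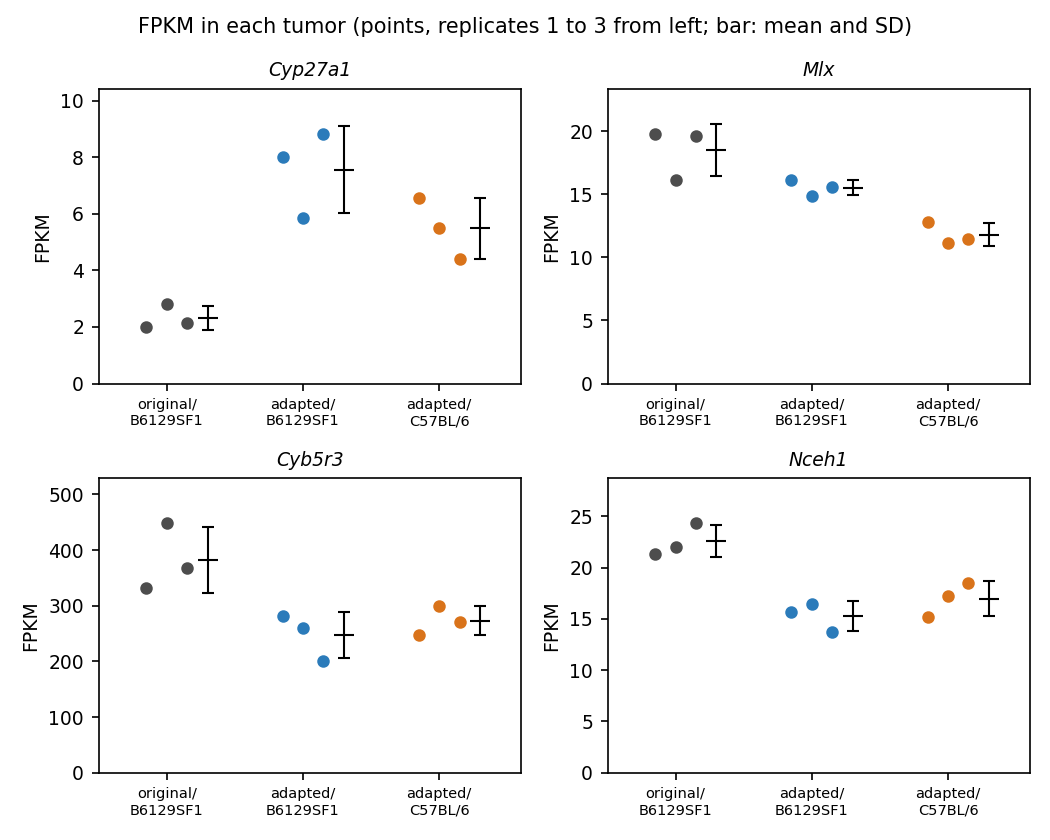
FPKM (vertical) of Cyp27a1, Mlx, Cyb5r3 and Nceh1, further lipid genes that passed in a comparison, in each tumor (points, replicates 1 to 3 from left in each group), with the mean and SD. Cyp27a1 is higher in every adapted tumor than in any original/B6129SF1 tumor, the other 3 genes are lower in every adapted tumor, and Mlx is lowest in the adapted/C57BL/6 group.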

How the data were processed

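RNA of 9 tumors, 3 per group, was sequenced with a TruSeq kit as paired-end reads. The authors aligned the reads to mm10 with HISAT2, and the deposited values are FPKM made by the authors with Cuffnorm, the transcript annotation and filters being not given in the sources used here. Each tumor was placed in its group from its labels. Values were taken as log2(FPKM + 1). A gene entered the test if 3 or more tumors reached 1 FPKM, which left 10263 genes. The test was limma 3.58.1 under R 4.3.3, with all 9 tumors fitted together by lmFit and variances moderated by eBayes along their trend with expression, and p-values were adjusted over these genes after Benjamini and Hochberg. Summed levels were compared by exact two-sided permutation tests.

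The genes and lists were chosen with earlier results of these data known. All 32 genes are named. Values are given per tumor for genes past an adjusted p of 0.05 and for the 3 highest of each role, and other lipid genes are named where they passed, except that some genes counted in the lists are not reported here. Hsd17b7, Acss2, Scap, Mylip, Abca1, Abcg1, Lpcat3 and Lpl were added after their values were seen. The alternatives were another scaling, filters, pseudocount, samples, covariates, a replicate block and each tumor left out. FPKM keeps no count, so precision is limited by the number of tumors. Promoter sequences and coordinates of mouse genes were not used here.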

Additional observations from a re-analysis of the deposited data

How the results depend on the processing

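The number of the 27 genes past an adjusted p of 0.05 depended on single tumors. In the adapted/B6129SF1 group against the original/B6129SF1 group it was 1, and 0 to 2 when 1 tumor was left out, 0 without both muscle-rich tumors and 2 with the proliferation covariate, an alternative chosen after seeing the data. In the adapted/C57BL/6 group it was 1, and 1 to 3 when 1 tumor was left out, 2 with only the 6 tumors compared, 2 with the adipocyte covariate and 3 with the proliferation covariate. Its number of DEGs was 0, and 0 to 1 when 1 tumor was left out, the 1 being Hsd17b7 without original/B6129SF1 replicate 2. The cause of these shifts was not tested. Without 1 tumor, the median log2 fold change of the 27 genes ran from -0.38 to 0.13, from -0.52 to -0.06 and from -0.42 to 0.08 in the 3 comparisons. Scaling by median ratios shifted the median of all genes by at most 0.04.

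Tumors that share a replicate number come from separate mice. Their deviations from their group means correlated at -0.388 to 0.614 across genes, the highest being for replicate 2 of the 2 adapted groups. The main fit assumed no pairing, as the paper describes none. In a fit with a replicate block the counts among the 27 genes stayed at 1, 1 and 0, and the adjusted p from limma became 0.0666 for Cyb5r3 and 0.0567 for Nceh1 in the adapted/B6129SF1 group and 0.0561 for Cyp27a1 in the adapted/C57BL/6 group. Read counts were not used, so the depth behind weakly expressed genes such as Hsd17b7 and Acss2 is unknown.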
